A study of Homo sapiens with 24 samples.

Results

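FN1, which encodes fibronectin, and VIM, which encodes vimentin, were followed across 2 lines of human hepatocellular carcinoma (HCC), PLC/PRF/5 and SNU-449. Both lines are established cell lines. Control cells received neither agent, and the other cultures received 1 ng/mL TGFβ1, 10 µM galunisertib or the combination for 16 h, so that the lines gave 8 groups of 3 independent cultures. Galunisertib is a small-molecule inhibitor of the kinase of the type I TGFβ receptor. RNA of each culture was hybridised to one-colour Agilent arrays, 24 in all. FN1 and VIM were chosen by their measured levels in the lines on these arrays, where FN1 ran against the mesenchymal pattern of the lines, and their probes were found through the RefSeq accession that the array design gives each probe. Of 58201 non-control probes, 1 belonged to FN1 and 1 to VIM, and these are 2 of the 22439 genes that the RefSeq table could name.

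Fibronectin is a secreted glycoprotein that hepatocytes release into plasma in soluble form and that fibroblasts and many other cells assemble into fibrils at their surface. Integrins pull on the dimer to open it, and the fibrils then bind collagens, thrombospondin and latent TGFβ complexes. Vimentin is the intermediate filament protein of mesenchymal cells, and many carcinoma cells make it alongside or in place of keratins. Both genes are widely used as markers of epithelial to mesenchymal transition, and both are known targets of TGFβ in other cells. Fibronectin is at the same time one of the plasma proteins that the hepatocyte makes.

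The bases before the RefSeq start of each gene are shown so that their composition and motifs can be read beside the levels. Bases after that start were not searched, so these stretches need not hold the whole promoter. They were taken from RefSeq promoter windows on build GRCh38.p14, where both genes had 1 window. The FN1 sequence lies on the minus strand at chr2:215436069-215436318, and the VIM sequence on the plus strand at chr10:17227991-17228240. Capitals mark matches on either strand to any of 6 motifs that were searched. The core of a cAMP response element was searched as TGACG and an AP-1 site as TGACTCA. Factors of the Sp family bind the GC box, which was searched as GGGCGG. For the TATA box of core promoters the letters were TATAAA. An E-box, which Snail and ZEB repressors recognise, was searched in the form CAGGTG. The last motif, a Smad-binding element, was searched as CAGACA.
FN1: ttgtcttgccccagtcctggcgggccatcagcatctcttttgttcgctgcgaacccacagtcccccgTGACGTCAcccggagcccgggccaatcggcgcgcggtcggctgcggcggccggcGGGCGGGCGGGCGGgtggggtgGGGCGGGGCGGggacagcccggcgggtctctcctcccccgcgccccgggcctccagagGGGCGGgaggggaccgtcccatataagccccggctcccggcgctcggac
VIM: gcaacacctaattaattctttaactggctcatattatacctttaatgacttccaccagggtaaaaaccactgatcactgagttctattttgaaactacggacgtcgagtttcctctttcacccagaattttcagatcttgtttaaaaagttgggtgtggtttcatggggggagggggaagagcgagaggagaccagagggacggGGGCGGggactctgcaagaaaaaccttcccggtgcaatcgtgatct

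The FN1 sequence held TGACG on both strands, in overlapping matches between 183 and 176 bases before the start. It also held GGGCGG 6 times, in part overlapping, whereas VIM held it once, between 46 and 41 bases before the start. Of 35116 promoter windows of the same length, 21.22% held TGACG and 42.64% held GGGCGG. The letters searched for the AP-1 site, the TATA box, the E-box and the Smad-binding element, which 4.2%, 10.72%, 17.49% and 13.61% of all windows held, were not matched in either sequence. The FN1 stretch was 76.4% G and C with 32 CpG, and the VIM stretch 46.0% with 8, where the medians over all windows were 58% and 11. A match is a string of letters, and binding of any factor was not measured.

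The FN1 gene spans chr2:215360865-215436068 and VIM chr10:17228241-17237593 on GRCh38.p14. Probes were designed on an earlier assembly than GRCh38.p14, and these positions only show which genes neighbour each other. The FN1 probe, A_24_P334130, carries the accession NM_054034, 1 of 18 RefSeq transcripts of the gene. The probe sequence was not at hand, so which of these transcripts the FN1 values read is not known. Its spot lies in row 5, column 111 of a grid of 384 rows and 164 columns, 4 rows from the edge. The VIM probe, A_23_P161190, carries NM_003380, the only RefSeq transcript of VIM, and lies in row 369, column 21. Since each gene had 1 spot per array, no second spot of either gene could be set beside it.

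Levels are the log2 of the processed intensity over the 75th percentile of the probes of its array, so that 0 is the level of a probe brighter than most. A level compares the same probe between arrays and says nothing of 1 probe against another. Values under 8.22% of that percentile, a log2 of -3.61, were set to this floor. The software called FN1 well above background on 17 of the 24 arrays and VIM on all 24, and no spot was saturated. Between 41.6% and 49.6% of the probes of an array were well above background. Arrays of a group correlated at 0.976 to 0.997 on average over 19260 probes, lowest among the SNU-449 arrays with galunisertib. Arrays of a replicate number shared 1 scan date in the file headers, taken here as 1 slide. Each group took the same place on every slide, so place and treatment cannot be told apart.

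**Figure D1:**
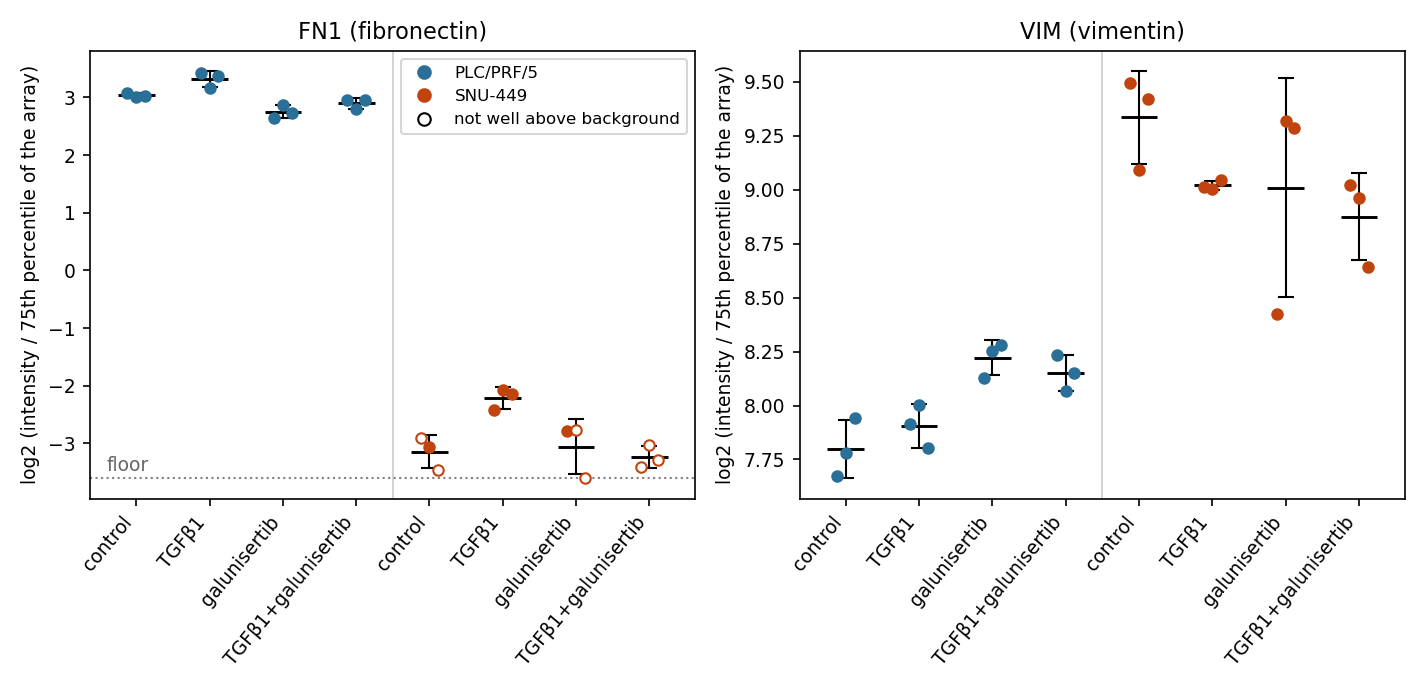
Level of FN1 (left) and VIM (right) on each array, as log2 of intensity over the 75th percentile of the array, by line and treatment. Points are arrays, open where the software did not call the spot well above background, bars are the mean and SD of 3 arrays, and the dotted line is the floor at -3.61; all SNU-449 points lie below all PLC/PRF/5 points for FN1 and above them for VIM.

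The lines differed in opposite directions at the 2 genes. By its 1 probe, whose transcripts are not known, FN1 was high in PLC/PRF/5 and close to background in SNU-449. VIM was bright in both lines and brighter in SNU-449. Since these values chose the genes, they are given as a description with no test. FN1 read 3.08, 3.00 and 3.02 in replicates 1, 2 and 3 of the PLC/PRF/5 controls, a mean of 3.04 ± 0.043 (SD, n = 3). The SNU-449 controls read -2.91, -3.06 and -3.46 for FN1, averaging -3.15 with an SD of 0.28 (n = 3), and only replicate 2 was well above background. The 6 arrays fell into separate ranges, and the SNU-449 mean minus the PLC/PRF/5 mean was -6.18 on the log2 scale, a 72.5-fold higher level in PLC/PRF/5. With normexp background correction, which here added an offset of 50 to the intensities, the difference was -3.78. FN1 intensities averaged 17.4 in the SNU-449 controls, below that offset. The size of the difference thus depends on how low intensities are handled, and the parts of the offset and of the background were not told apart. Of 27034 probes measured in control cells, 0.599% were lower in SNU-449 by more than FN1 was.

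VIM read 7.67, 7.78 and 7.94 in the PLC/PRF/5 controls and 9.49, 9.09 and 9.42 in the SNU-449 controls. Again the ranges were separate, with means of 7.80 ± 0.13 and 9.34 ± 0.22 (SD, n = 3). The level was 2.90-fold higher in SNU-449, and 11.7% of the probes were higher in SNU-449 by more. In PLC/PRF/5 the lowest VIM value of the line, 7.67, was still 204 times the 75th percentile of its array. The arrays read RNA of whole cultures, in which fewer cells with a transcript and less of it per cell cannot be told apart.

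Over all 8 groups, FN1 descended from PLC/PRF/5 with TGFβ1 (3.32) through the controls (3.04), both agents (2.90) and galunisertib (2.75) of that line to SNU-449 with TGFβ1 (-2.21), galunisertib (-3.06), control (-3.15) and both agents (-3.24). Neighbours in this order had overlapping arrays between both agents and galunisertib in PLC/PRF/5, and among the 3 lowest groups. VIM descended from the SNU-449 controls (9.34) through TGFβ1 (9.02), galunisertib (9.01) and both agents (8.88) to PLC/PRF/5 with galunisertib (8.22), both agents (8.15), TGFβ1 (7.91) and control (7.80). There the controls and TGFβ1 of SNU-449 did not overlap, nor did both agents of SNU-449 and galunisertib of PLC/PRF/5, nor both agents and TGFβ1 of PLC/PRF/5. The other neighbours overlapped.

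SNU-449 minus PLC/PRF/5, FN1 differed by -6.18, -5.53, -5.81 and -6.14 on the log2 scale in control cells, with TGFβ1, with galunisertib and with both agents. FN1 was well above background on 1, 3, 1 and 0 of the 3 SNU-449 arrays of these groups, so all but the value with TGFβ1 rest on arrays near background. On the processed intensities, FN1 was at least 70.7-fold lower in SNU-449 with both agents, where no SNU-449 array was above background. With galunisertib, with 1 array at the floor, it was at least 53.6-fold lower on that scale. Neither fold is a lower limit under other handling of low intensities, since the control difference was only -3.78 with normexp and its offset. The difference at VIM was 1.54, 1.11, 0.79 and 0.72 in the same order, largest in control cells. One array weighed on the value with galunisertib, as VIM read 8.42 in replicate 1 of SNU-449 against 9.32 and 9.29 in replicates 2 and 3. Without it the difference at VIM with galunisertib was 1.08.

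Genes that accompany FN1 or VIM in the cell were read from lists in the same control arrays, again as differences with no test. Across 27034 probes, 18.6% were more than 2-fold higher in PLC/PRF/5 and 19.2% more than 2-fold higher in SNU-449, with a median difference of -0.046. Of 20 measured genes of the mesenchymal pattern, 17 were more than 2-fold higher in SNU-449 and 2 in PLC/PRF/5. COL1A1, a chain of type I collagen, was at least 1593-fold higher, CD44, the hyaluronan receptor, at least 1268-fold and COL1A2, the other chain, at least 756-fold. These are bounds against the weakest signal well above background, since no PLC/PRF/5 control array was above it for these genes, and list medians hold such genes at their measured values. The 2 that ran with FN1 were ITGA5 (-3.10), the integrin α5 chain of the main fibronectin receptor, and PDGFRB (-1.95), a receptor of mesenchymal cells.

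Of 18 measured fibronectin receptors and assembly factors, 9 were more than 2-fold higher in SNU-449 and 2 in PLC/PRF/5, with a median difference of 0.90. The integrin chains ITGA4, ITGB3 and ITGB6 were higher by at least 22.9-fold, 6.84-fold and 6.67-fold, with no PLC/PRF/5 control array above background. Higher in PLC/PRF/5 were ITGA5 and TNS1 (-1.17), a tensin that links integrins to actin. The β1 chain ITGB1, the partner of α5, differed by 2.31 the other way. Of 11 measured matrix proteins that bind fibronectin, 7 were more than 2-fold higher in SNU-449, and 2 were so in PLC/PRF/5, namely LTBP1 (-2.45), which tethers latent TGFβ to fibronectin fibrils, and FBLN1 (-1.59), a fibulin.

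Secreted liver proteins lay on the side of FN1. Of 19 measured, 17 were more than 2-fold higher in PLC/PRF/5, with a median difference of -7.28, and 1, FGB (2.36), a chain of fibrinogen, was more than 2-fold higher in SNU-449. SERPINA1, the main plasma inhibitor of elastase, differed by -11.72. APOA2, an apolipoprotein, and F2, prothrombin, stayed within background in all 3 SNU-449 controls and were at least 1699-fold and 876-fold lower there. The epithelial list had 5 of 6 measured genes more than 2-fold higher in PLC/PRF/5, among them CDH1, E-cadherin (-3.70), and EPCAM, which was not above background in the SNU-449 controls and at least 287-fold lower. Of the leukocyte and endothelial markers, PECAM1 was well above background on 0 of 24 arrays, CDH5 on 13, PTPRC on 23 and VWF on 24, and each read -1.795 or lower on every array.

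**Figure D2:**
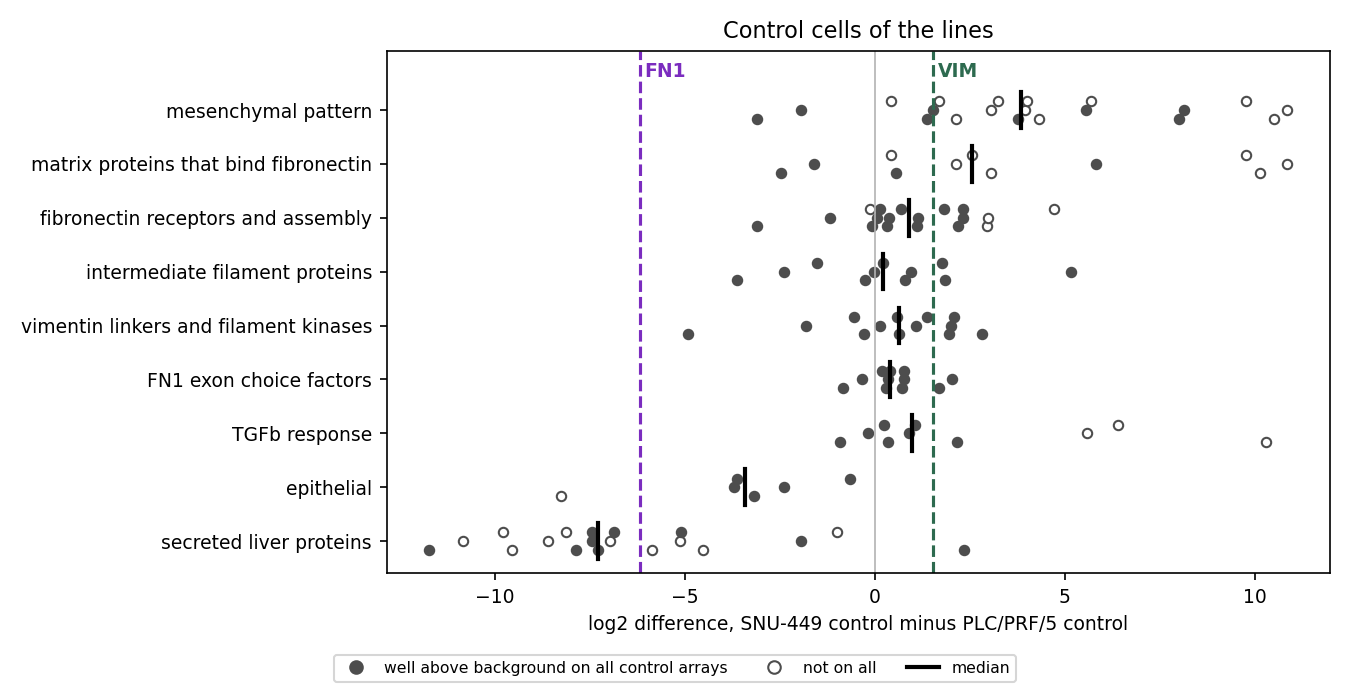
Difference between the control cells of the lines, SNU-449 minus PLC/PRF/5 on the log2 scale, for each measured gene of 9 lists (grey points, filled where all 6 control arrays were well above background) with the list's median (black bar). FN1, the dashed line at -6.18, lies among the secreted liver proteins, and VIM, the dashed line at 1.54, lies below the median of the mesenchymal pattern, 3.85.

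Among the other intermediate filament proteins, keratins showed the largest differences. KRT8 and KRT18, the keratin pair of hepatocytes, differed by -3.63 and -2.39, higher in PLC/PRF/5, and KRT7, a keratin of bile duct cells, was higher in SNU-449 by 5.17. INA, a neuronal filament protein, was also more than 2-fold higher in PLC/PRF/5 (-1.53). LMNB1 and LMNB2, lamins of the nuclear envelope, were higher in SNU-449 by 1.85 and 1.76. Of 11 measured, 3 were more than 2-fold higher in each line. Linkers and kinases of vimentin filaments were more often higher in SNU-449, with 6 of 13 more than 2-fold higher there, among them the plakins PLEC (2.83), DST (2.08) and MACF1 (2.02). DSP (-4.92), which anchors filaments at desmosomes, and the kinase PAK1 (-1.82) were higher in PLC/PRF/5. Of 11 measured factors that choose exons of FN1, RBFOX2 (2.04) and MBNL1 (1.69) were more than 2-fold higher in SNU-449 and none in PLC/PRF/5. With 1 FN1 probe, splice forms were not told apart.

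VIM has an antisense partner, VIM-AS1, whose locus at chr10:17214239-17229985 covers the start of VIM, and 2 probes carry its accession. They disagreed on the lines. Probe A_21_P0014248 read means of -0.076 ± 0.087 in PLC/PRF/5 and -0.17 ± 0.22 in SNU-449 controls (SD, n = 3), with overlapping arrays. Probe A_21_P0014785 read -0.19 ± 0.21 and 1.32 ± 0.14, without overlap and with a difference of 1.52 beside 1.54 for VIM itself. Both were well above background on all 24 arrays. The 2 probes named for lncRNAs next to VIM, lnc-VIM-1:5 and lnc-VIM-1:2, were well above background on 0 arrays. FN1-DT, the lncRNA on the opposite strand at the start of FN1, was not analysed here.

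Treatment effects were tested with limma across all probes that were well above background in at least 1 group of the fit, over 12 comparisons, and a change was called at a Benjamini-Hochberg adjusted p below 0.05. P-values rest on the spread between the 3 cultures of a group, pooled over all groups of the fit and shared in part between probes. How many of all probes had groups without overlap was not counted. Separate ranges of FN1 or VIM are therefore a description only. Of the 24 tests of FN1 and VIM, 4 passed, and none passed the study's stricter limits of a fold above 2 and a p below 0.001. Over all probes, 1.55% to 33.1% passed the adjusted p, depending on the comparison. The study's limits were met by 1.07%, 0.255%, 2.81%, 0.477% and 1.06% of probes in PLC/PRF/5 for TGFβ1, galunisertib, both agents against TGFβ1, both against galunisertib and the difference of the TGFβ1 effects, by 2.16%, 1.16%, 3.67%, 0.78% and 1.23% in SNU-449, and by 2.05% and 1.48% for the differences between lines in TGFβ1 and galunisertib effects. At an unadjusted limma p below 0.05, 10 of the 24 tests passed, 4 of them tests of FN1 with SNU-449 arrays near background, beside 23% of all probe tests of the 12 comparisons. At the adjusted p, the 4 calls were FN1 lower in both lines when galunisertib was added to TGFβ1, FN1 higher with TGFβ1 in SNU-449, and VIM higher with galunisertib in PLC/PRF/5. Over all probes, 33.1% passed in PLC/PRF/5 and 14.3% in SNU-449 when galunisertib was added to TGFβ1. With TGFβ1 in SNU-449 8.07% passed, and with galunisertib in PLC/PRF/5 2.74%. Both FN1 calls in SNU-449 depended on the filter, which FN1 passed there through the arrays with TGFβ1 alone, and were lost with no filter. In PLC/PRF/5 without added TGFβ1, the change with galunisertib was negative for FN1, which did not pass, and positive for VIM. The VIM call was lost under 15 of 20 alternatives.

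**Figure D3:**
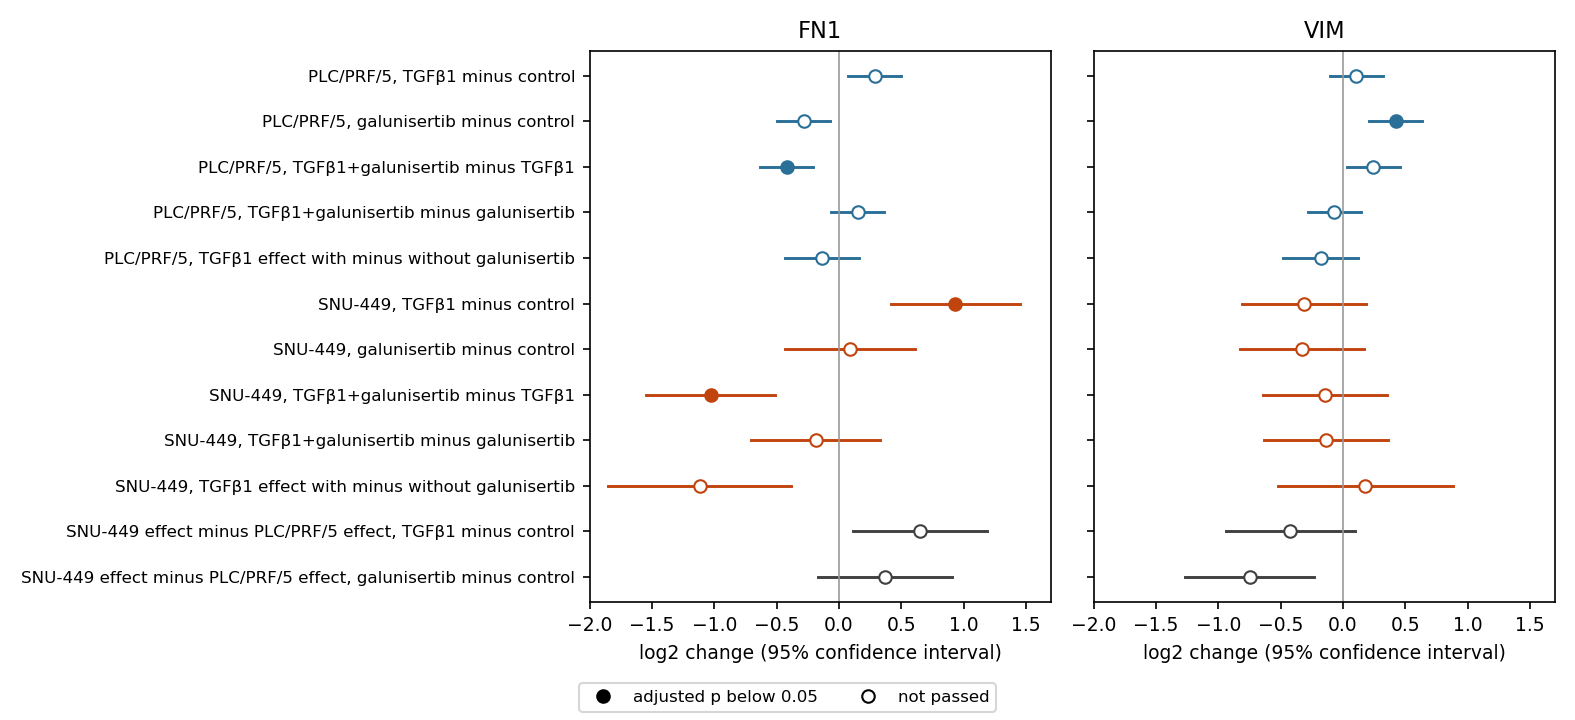
Change of FN1 (left) and VIM (right) in each of the 12 comparisons, on the log2 scale, with 95% confidence intervals from limma; blue is PLC/PRF/5, orange SNU-449 and grey a difference between the lines, and filled points passed an adjusted p below 0.05. FN1 has 3 filled points and VIM 1.

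The first comparison was of TGFβ1 with control in PLC/PRF/5. FN1 read 3.43, 3.17 and 3.37 in the 3 cultures with TGFβ1, all above the 3 controls, which read 3.08 at most. The difference of 0.29 ± 0.096 (SE) had a limma adjusted p of 0.0933 and did not pass, beside 9.41% of 27043 probes that did. Probes within 10 rows and 10 columns of the FN1 spot, all well above background on every array, differed by a median of 0.15 between the same arrays, and with each FN1 value centred on them the difference was 0.14 (adjusted p = 0.434). With normexp it was 0.62 and passed (adjusted p = 6.68e-04). VIM read 7.91, 8.004 and 7.80 with TGFβ1 and overlapped the controls. Its difference of 0.11 had a 95% confidence interval of -0.10 to 0.32 and a limma adjusted p of 0.554.

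The same comparison in PLC/PRF/5, in which 9.41% of all probes passed, moved genes around fibronectin. Of 15 receptors and assembly factors tested, 4 rose, with a median change of 0.27 beside -0.027 over all probes. They were TNS1 (1.52), the αV integrin ITGAV (0.48), the adaptor paxillin, PXN (0.44), and the proteoglycan receptor SDC4 (0.44). LTBP1 rose by 0.68, the only 1 of 6 matrix proteins that passed. Of 13 linkers and kinases of vimentin filaments, 1 passed, PAK1, which rose by 0.58. The median changes of the filament proteins and the exon choice factors were -0.024 and -0.041. Of 8 TGFβ response genes, 6 rose, among them PMEPA1 (at least 4.29-fold, from below background in the controls) and SKIL (1.64), both feedback inhibitors of TGFβ signalling, while CCN2, a matricellular protein, fell by 0.81. Among 19 secreted liver proteins 5 fell, ALB by 0.93, and 1, VTN, vitronectin, rose by 0.56. Of 9 genes of the mesenchymal pattern 3 rose, PDGFRB (0.69), the lysyl oxidase LOXL2 (0.62) and CDH2, N-cadherin (0.52), and of 7 epithelial genes the claudin CLDN1 fell by 0.58. Of the 3 leukocyte and endothelial markers tested, CDH5 fell by 0.89 from a mean of -2.10. The summed level of 4 such markers was 0.61 to 0.751 of the 75th percentile in controls and 0.503 to 0.678 with TGFβ1.

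In SNU-449, where FN1 lay at the edge of detection, it read higher with TGFβ1, in a call that rested on the filter. FN1 read -2.42, -2.07 and -2.14 in the 3 cultures with TGFβ1, all well above background and all above the 3 controls, the highest of which read -2.91. The change was 0.93 ± 0.23 (SE), with a limma adjusted p of 0.0350, beside 8.07% of 25777 probes that passed and 4.66% that rose. Intensities averaged 35.6 with TGFβ1 and 17.4 in the controls, of which only replicate 2 was well above background. FN1 entered this test only because the 3 arrays with TGFβ1, where it was high, passed the filter, and with no filter the adjusted p was 0.122. Normexp background correction models the background of each array and here added an offset of 50. With it the change was 0.28 with an adjusted p of 0.136. Probes around the FN1 spot moved by a median of 0.27, and with each value centred on them the change was 0.66 and the adjusted p 0.0664. The call was lost when any 1 of the 6 arrays was left out, with adjusted p of 0.0519 to 0.131.

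VIM did not pass in SNU-449 with TGFβ1. It read 9.015, 9.0045 and 9.0436, just below the lowest of the 3 controls at 9.09, so that the groups did not overlap. The difference of -0.31 had a 95% confidence interval of -0.81 to 0.18 and a limma adjusted p of 0.470. The spread behind this interval was pooled over the line and took in the galunisertib arrays, with an SD of 0.51. The SD was 0.020 with TGFβ1 and 0.22 in the controls. None of 20 alternatives passed. The effects in the lines differed by 0.65 for FN1 (adjusted p = 0.163) and by -0.42 for VIM (adjusted p = 0.385) in limma's test of the difference, and neither passed, beside 6.55% of 29303 probes that did. With normexp the FN1 difference was -0.34.

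Around FN1 in SNU-449, 4 of 18 receptors and assembly factors rose with TGFβ1, beside 8.07% of all probes that passed. The list had a median change of 0.22 beside 0.021 over all probes. All 4 were integrin chains, ITGB6 (1.24), ITGAV (0.86), ITGA5 (0.76) and ITGB5 (0.40), and the αV chain pairs with β5 and β6 in receptors that bind fibronectin or activate TGFβ. Of 11 matrix proteins 4 rose, COL1A1 (0.94), COL1A2 (0.47), the procollagen protease BMP1 (0.94) and FBLN1 (0.46). Of 20 genes of the mesenchymal pattern 8 rose, led by FAP, fibroblast activation protein (1.94), and SNAI2, a repressor of E-cadherin (1.08), and TWIST1, also a transcription factor of the transition, fell by 0.66. Of 10 TGFβ response genes 9 rose, and 4 of 5 epithelial genes fell, CDH1 by 1.98. Around VIM, KRT18 fell by 0.56 among 11 filament proteins and DSP rose by 0.91 among 13 linkers and kinases. Of the exon choice factors ESRP2, an epithelial splicing regulator, fell by 0.52.

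Galunisertib was also compared with control, without added TGFβ1. The study states that the drug inhibits receptors of activin and nodal too, and through which receptor a change came was not tested. VIM in PLC/PRF/5 read 8.13, 8.25 and 8.28 with galunisertib, all above the 3 controls, which read 7.94 at most. It rose by 0.42 ± 0.097 (SE), 1.34-fold, with a limma adjusted p of 0.0456, beside 2.74% of 27043 probes that passed and 1.9% that rose. Probes near the VIM spot moved by a median of 0.059. This call lay at the threshold. It was lost under 15 of 20 alternatives, with changes of 0.33 to 0.50, adjusted p from 0.0308 to 0.996 and no change of sign, and among single arrays it held only without control replicate 3. FN1 read 2.65, 2.87 and 2.74, all below the controls, and its difference of -0.28 did not pass (limma adjusted p = 0.136). Probes near the FN1 spot differed by a median of -0.16, and centred on them the FN1 difference was -0.13 (adjusted p = 0.514).

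KRT8 (0.74) and KRT18 (0.47) were the 2 of 12 other intermediate filament genes that rose with galunisertib in PLC/PRF/5. Over all probes 2.74% passed and 1.9% rose. Of 15 receptors and assembly factors PXN (0.53) and TGM2, a transglutaminase that crosslinks fibronectin (0.73), rose. Of 9 genes of the mesenchymal pattern, PDGFRB fell by 0.66. Of 8 TGFβ response genes, 1 passed, SKIL, which fell by 0.60. Of 19 secreted liver proteins 3 fell, ALB by 0.95, the inter-α-trypsin inhibitor chain ITIH1 by 0.93 and transthyretin, TTR, by 0.67.

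In SNU-449 neither gene passed with galunisertib, beside 4.69% of 25777 probes that did. FN1 read -2.79, -2.78 and, in replicate 3, the floor of -3.61, so that its difference of 0.088 changed sign with the floor and was -0.245 with a lower floor. VIM differed by -0.33 (limma adjusted p = 0.430), and by -0.032 without replicate 1 of the treated arrays. The galunisertib effects of the lines differed by -0.75 for VIM, with a 95% confidence interval of -1.27 to -0.23 and a limma adjusted p of 0.107, beside 4.09% of 29303 probes that passed. Without replicate 1 of SNU-449 with galunisertib this difference was -0.46, and without replicate 2 it was -0.90 and passed (adjusted p = 0.0374). In the same arrays COL1A1 fell by 2.60, ITGB6 by 2.14 and ITGB5 by 0.54, KRT7 changed by -1.496, and 7 of 10 TGFβ response genes fell, with PMEPA1 at -3.48. Of 20 genes of the mesenchymal pattern 4 rose, ACTA2, smooth muscle actin (0.80), S100A4 (0.73), LOXL2 (0.46) and SPARC (0.46), and 2 fell, COL1A1 and FAP (-0.895), with a median change of 0.26 beside 0.069 over all probes. COL1A1 was the only 1 of 11 matrix proteins that passed. Of 5 epithelial genes 3 rose, CDH1 by 1.84.

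Galunisertib added to TGFβ1 was the comparison in which FN1 passed in both lines, though the SNU-449 call was lost with no filter. FN1 in PLC/PRF/5 read 2.96, 2.79 and 2.95 with both agents, each below the 3 cultures with TGFβ1 alone, of which the lowest read 3.17. It fell by 0.42 on the log2 scale (SE 0.096), a 1.34-fold lower level, with a limma adjusted p of 0.00711, beside 33.1% of 27043 probes that passed and 12% that fell. Probes near the FN1 spot moved by a median of 0.011. The call held when any of the 6 arrays was left out, with adjusted p of 0.00674 to 0.0356, and was lost with arrays scaled to the median (-0.27, adjusted p = 0.360) or not scaled (-0.45, adjusted p = 0.301). VIM read 8.23, 8.07 and 8.15 with both agents, above all 3 cultures with TGFβ1, and its difference of 0.24 had a limma adjusted p of 0.0751.

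In SNU-449, FN1 read -3.40, -3.03 and -3.29 with both agents, none well above background and all below the 3 cultures with TGFβ1. On the processed intensities it was at least 2.04-fold lower, a change of -1.03 with a limma adjusted p of 0.0149, beside 14.3% of 25777 probes that passed and 6.69% that fell. With normexp and its offset the change was only -0.21 (adjusted p = 0.234), so the fold is no lower limit under other handling of low intensities. Here too FN1 was tested only because the arrays with TGFβ1 were above background, and with no filter the adjusted p was 0.059. Probes near the spot moved by -0.19, and the value centred on them was -0.84 with an adjusted p of 0.0165. The call was lost without replicate 2 or 3 of TGFβ1 (-0.96 and -0.995) or replicate 1 of both agents (-0.95). VIM differed by -0.15 (limma adjusted p = 0.743), with overlapping arrays.

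**Figure D4:**
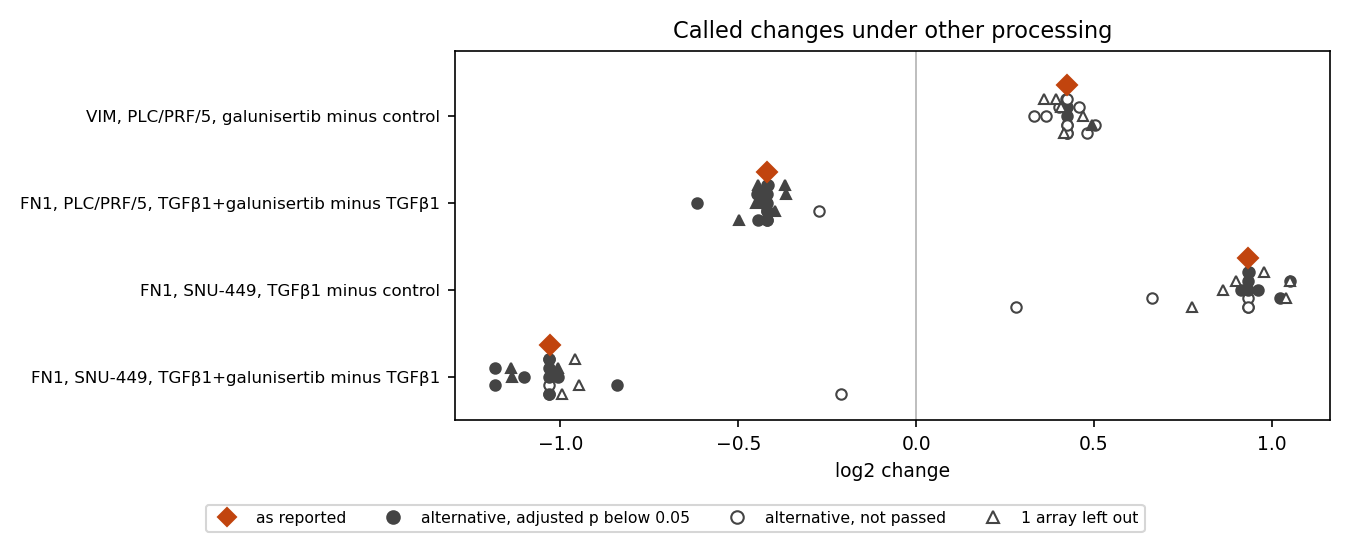
The 4 called changes of FN1 and VIM as reported (orange diamonds) and under other processing (circles) or with 1 array left out (triangles), on the log2 scale, filled where the adjusted p was below 0.05. No point crosses 0, and most points of VIM with galunisertib are open.

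ITGA5 fell in both lines when galunisertib joined TGFβ1, by 0.95 in PLC/PRF/5 and by 0.51 in SNU-449. Of 15 receptors and assembly factors in PLC/PRF/5, 5 fell, TNS1 (-1.498), ITGA5, TLN1, talin (-0.63), PTK2, focal adhesion kinase (-0.53), and ILK (-0.39), and 2 rose, TGM2 (1.25) and VCL, vinculin (0.70). LTBP1 (-0.76) and COL6A1 (-0.38) fell among 6 matrix proteins. The exon choice factors had 4 of 11 that rose, SRSF1 (0.64), SRSF3 (0.51), MBNL1 (0.44) and SRSF7 (0.36), and QKI fell by 0.82. The median changes of these lists were -0.11, -0.34 and 0.19, beside 0.040 over all probes, of which 33.1% passed in this comparison. Of 8 TGFβ response genes 6 fell and 1 rose: the log2 change of SKIL was -2.03, that of CCN2 was 1.61, and PMEPA1, which ended below background, was at least 4.93-fold lower. Of 9 genes of the mesenchymal pattern 5 fell and 2 rose, and the log2 change of PDGFRB was -1.04. Of 19 secreted liver proteins 7 rose and 2 fell, and the log2 change of AHSG was 1.42.

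In SNU-449, 5 of 18 receptors and assembly factors fell, all integrin chains and led by ITGB6 (-1.67) and ITGAV (-0.78) and with ITGB1 (-0.45) among them, and SDC2, a syndecan, rose by 0.61. Of 11 matrix proteins 4 fell, COL1A1 by 1.93, BMP1 by 1.16, LTBP1 by 1.13 and thrombospondin, THBS1, by 0.59. Of 11 exon choice factors, PTBP1 fell by 1.03 and ESRP2 rose by 0.54. Of 20 mesenchymal genes 7 fell and 3 rose, and 4 of 5 epithelial genes rose, CDH1 by 2.80. All 10 TGFβ response genes fell. Over all probes 14.3% passed in this comparison and 6.69% fell. The comparison shares its TGFβ1 arrays with that of TGFβ1 against control, so values of the pair are given side by side only.

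Around VIM, PLC/PRF/5 had 2 of 12 filament genes that rose with galunisertib added to TGFβ1, SYNM, synemin (0.57), and KRT18 (0.29), and LMNA, lamin A/C, fell by 0.35. Of 13 linkers and kinases 5 rose and 2 fell, with PLEC (-0.70) and PAK1 (-0.58) lower and CDK1 (0.49) and PAK2 (0.38) the largest rises. Over all probes 33.1% passed in this comparison in PLC/PRF/5 and 14.3% in SNU-449. In SNU-449 KRT7 fell by 0.85 and KRT18 rose by 0.54 among 11 filament genes, and DSP fell by 1.00, the only 1 of 13 linkers and kinases that passed. The VIM-AS1 probes disagreed here as well. The probe A_21_P0014248 rose in PLC/PRF/5 by 0.58 (limma adjusted p = 9.05e-04) and A_21_P0014785 differed by -0.22 (adjusted p = 0.172). In SNU-449 the first differed by 0.29 (adjusted p = 0.276) and the second fell by 0.45 (adjusted p = 0.0377).

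When TGFβ1 was added on top of galunisertib, neither gene passed in either line. For PLC/PRF/5, FN1 differed by 0.15 (limma adjusted p = 0.346) and VIM by -0.070 (adjusted p = 0.682), beside 5.28% of probes that passed. That of FN1 was 0.48 and passed with normexp (adjusted p = 0.00650) and -0.17 centred on neighbouring probes, so its sign is not settled. In SNU-449 the differences were -0.18 (adjusted p = 0.727) and -0.13 (adjusted p = 0.799), beside 1.55%. Near FN1, ITGB6 (1.71) and COL1A1 (1.61) rose in SNU-449, and TLN1 (-0.93) and ILK (-0.38) fell in PLC/PRF/5. Near VIM, KRT7 rose by 1.18 in SNU-449, and KRT8 (-0.57) and PLEC (-0.56) fell in PLC/PRF/5. Of 10 TGFβ response genes, 5 still rose in SNU-449, PMEPA1 by 2.75, while the median change of the 8 tested in PLC/PRF/5 was 0.019.

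Whether the inhibitor changed the TGFβ1 effect was tested as the difference of the effects with and without it. In SNU-449 the TGFβ1 effect on FN1 differed by -1.12 between cells with and without galunisertib, with a 95% confidence interval of -1.85 to -0.39. It did not pass in limma (adjusted p = 0.133), beside 1.58% of probes that did. FN1 entered this test only through the arrays with TGFβ1 alone, where it was high. Without replicate 3 of galunisertib, the array at the floor, the value was -1.39 and passed (adjusted p = 0.0268). This was the only 1 of 24 alternatives that passed, and the value shrank to as little as -0.18, with adjusted p up to 0.874. In PLC/PRF/5 the difference was -0.14 for FN1 and -0.18 for VIM, and for VIM in SNU-449 it was 0.18, with adjusted p of 0.601, 0.479 and 0.801, beside 4.81% of probes in PLC/PRF/5.

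Genes whose level ran most like each gene over the 12 arrays of a line were listed by Pearson's r among 14970 genes in PLC/PRF/5 and 14040 in SNU-449. The arrays of a group share their treatment and place, so r describes these arrays and has no p. FN1 in PLC/PRF/5 ran most like NUPR1 (r = 0.961), a stress-induced nuclear protein, TBL1XR1 (0.960), PLPP7 (0.951), TLCD4 (0.948) and EPHA7 (0.947). Among the genes that ran most like VIM were DGKZ (0.954), TGIF1 (0.936), a corepressor of Smad proteins, lnc-NLRP12-2:1 (0.930) and TFIP11 (0.927). In SNU-449 the best match of VIM was lnc-GGCT-1:3 (0.875), followed by VASH1-AS1 (0.858), lnc-CDH4-1:1 (0.844), SOCS7 (0.831) and SLC16A12 (0.825). For FN1 in SNU-449, measured on 5 of 12 arrays above background, they were MFSD12 (0.913), GAS6 (0.911), ZDHHC18 (0.895), ADSS1 (0.895) and MLXIP (0.893). The VIM-AS1 probes differed in their r with VIM in PLC/PRF/5, 0.696 for A_21_P0014248 and 0.221 for A_21_P0014785, and had 0.163 and 0.169 in SNU-449.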

How the data were processed

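The authors deposited the scanner output of Agilent Feature Extraction 10.7.3.1, which per the file headers gives each spot a linear processed intensity with settings not given in the sources used here, and a table of log2 values normalized in their software. Over 18994 single-spot probes well above background on all arrays, that table correlated at 1.00 with the scaling used here, centred per probe. These probes leave out FN1, which was well above background on 17 of the 24 arrays. The table served as an alternative. Control spots and 111 to 216 flagged spots per array were left out, spots of a probe averaged, and intensities divided by the 75th percentile over probes, floored and log2-transformed. A percentile over spots was computed first; the one over probes was chosen after values on both scales had been seen, and the former is an alternative. Of the probes, 31104 were named through RefSeq, 10719 by LNCipedia names and 16378 not.

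Using R 4.3.3 with limma 3.58.1, models were fitted over the 12 arrays of a line, or all 24 between lines, in place of the study's t-test with a random variance model, whose plain equal-variance form, here called the methods' t-test, is an alternative. The steps were tested on simulated data. FN1, VIM and the gene lists were chosen with earlier results of these data known, and lists give counts, not tests, with the brightest probe per gene. Named were FN1, VIM and their antisense probes, the 5 genes most like each, and up to 4 list members per comparison with the largest changes, or the 3 largest differences each way between lines; ITGB1, MACF1, CDK1 and others beyond these were chosen after their values were seen. Replicate numbers, taken here as slides, paired the samples for TGFβ1 against control in PLC/PRF/5 (r 0.164 to 0.296 of deviations from group means) and SNU-449 (0.137 to 0.228). They also did so for both agents against TGFβ1 in SNU-449 (0.113 to 0.264), and for no other comparison within a line. Normexp was run on the median signals with an offset of 50. Protein and probe sequences were not used here. Some genes of the lists and of the likeness ranking are not reported here by name.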

Additional observations from a re-analysis of the deposited data

How the results depend on the processing

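The 26 results on FN1 and VIM were recomputed 525 times under 14 settings and with single arrays left out, of which the normexp correction on median signals and the percentile over spots were added after seeing the data. Of these values 461 kept direction and side of the threshold, 36 lost a call, 5 gained one, 19 turned sign and 4 levels moved by over 1 SD, and the cause was not tested. VIM with galunisertib in PLC/PRF/5 lost its call with normexp (0.48), median scaling (0.50), quantile normalization (0.33), no scaling (0.46), local centring (0.36), the percentile over spots (0.40), and, at 0.42, with no filter, the compared groups alone, the methods' t-test and the replicate block (adjusted p = 0.0731), and with single arrays left out it was 0.36 to 0.49. The replicate block changed no other call on FN1 or VIM. For FN1 in PLC/PRF/5, both agents against TGFβ1 lost the call with median scaling (-0.27) and no scaling (-0.45), and TGFβ1 against control passed with normexp (0.62). FN1 with TGFβ1 in SNU-449 lost its call with normexp (0.28), local centring (0.66), the authors' log2 values (0.94) and, at 0.93, with no filter, 0.5 times the floor and the methods' t-test, and was 0.77 to 1.05 without single arrays. Both agents against TGFβ1 there lost it with normexp (-0.21), the authors' values (-1.03), no filter (-1.03) and 0.5 times the floor (-1.03), and was -1.14 to -0.95 without single arrays.

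Both agents against galunisertib turned sign in PLC/PRF/5 for FN1 with local centring (-0.17), passed with normexp (0.48), and turned for VIM with median scaling (0.026), no scaling (0.11) and local centring (0.17). In SNU-449 it turned for FN1 with normexp (0.10), the authors' values (0.58) and 0.5 times the floor (0.15), and ranged for VIM from -0.43 to 0.021 without single arrays. FN1 with galunisertib in SNU-449 turned with normexp (-0.031), the authors' values (-0.67) and 0.5 times the floor (-0.245), and was -0.071 to 0.36 without single arrays. VIM passed in PLC/PRF/5 for both agents against TGFβ1 with local centring (0.34). The difference between the TGFβ1 effects with and without inhibitor in SNU-449 was -0.015 for VIM with median scaling and, without single arrays, -0.11 to 0.33 for VIM and -1.39 to -0.96 for FN1. Between lines, FN1 turned with normexp for TGFβ1 (-0.34) and with the authors' values for galunisertib (-0.39), and VIM with galunisertib was -0.90 to -0.46 without single arrays. The control gap moved for FN1 with normexp (-3.78), median scaling (-5.88) and local centring (-5.76), and for VIM with median scaling (1.84).

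Counts of probes called moved by over 1.5 times in 78 of 260 alternatives, from 740 to between 12 and 913 for galunisertib and from 2545 to between 636 and 3088 for TGFβ1 in PLC/PRF/5, from 8957 to between 1375 and 9629 and from 1427 to between 0 (methods' t-test, where 4692 had an unadjusted p below 0.05) and 2603 for both agents against TGFβ1 and against galunisertib there, and from 1300 to between 53 and 1574 for the difference of effects. In SNU-449 the same 5 counts, in that order, went from 1210 to 32 to 1636, from 2079 to 885 to 2903, from 3697 to 1929 to 4765, from 400 to 0 (methods' t-test, where 2896 had an unadjusted p below 0.05) to 836 and from 406 to 157 to 650, and between lines from 1919 to 439 to 2685 for TGFβ1 and from 1199 to 222 to 1633 for galunisertib. FN1 in SNU-449 lay within background on 7 of 12 arrays, which limits its changes to what the brighter group shows.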
